A study of Mus musculus with 80 samples.

Results

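The 10 genes described here encode extracellular matrix proteins other than collagens, together with enzymes and a secreted regulator of that matrix, and are often read as a fibrosis panel. They are Fn1, Postn, Sparc, Fmod, Eln, Lox, Loxl1, Ccn2, Timp1 and Mmp2, taken by symbol from a table of 56941 genes, and all 10 were found and passed the filter on low counts. RNA was measured in left ventricular tissue of C57Bl/6J mice in 80 bulk sequencing libraries, 10 in each of 8 groups. For each sex these were sham (normal diet, 0 cGy), Western diet (0 cGy), mixed field (normal diet, 50 cGy, labelled "Mix") and gamma (normal diet, 100 cGy). Doses are in centigray (cGy), the absorbed energy per mass. The labels name no genotype beyond the strain, and they leave out age, time after exposure and what the mixed field was made of. They do not say that each library came from a separate animal, so the p-values below measure the spread between libraries, which may be technical. Library titles run from 1 to 40 in each sex. In each group, replicates 1 to 5 hold numbers from 1 to 20 (first title run) and replicates 6 to 10 hold numbers from 21 to 40 (second title run). What sets the runs apart is not labelled.

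The matrix of the heart is made mainly by fibroblasts, and holds collagen fibres, elastic fibres and adhesive glycoproteins that pass force between muscle cells. After injury or under load, fibroblasts can become activated, and periostin, fibronectin, the lysyl oxidases and CCN2 are among the products that rise in scar tissue. Transforming growth factor beta, and mechanical signals relayed by YAP and TEAD factors, are well-known inducers of several of these genes. Matrix metalloproteinases cut matrix proteins, and tissue inhibitors of metalloproteinases restrain them.

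Total counts ran from 13484776 to 22143504 per library, with a mean of 16518589. Mitochondrial genes took 18.8 to 31.3% of counts, and the ribosomal RNA Rn18s-rs5 took 0.102 to 5.03%. The tissue label was checked with 6 ventricular muscle markers, whose summed level ran from 38722.2 to 68260.3 CPM (counts scaled by the library's effective size), with none at 0 in any library. The summed level of 10 fibroblast markers ran from 1135.6 to 3714.5 CPM, with a median of 2366.6 CPM. Gsn (median 1313 CPM) and Dcn (420.6 CPM) weigh most in this sum, so it says little about the lower markers. Of 6 atrial muscle markers, the myosin light chain Myl7 was over 10 CPM in 20 male libraries, 17 of them in the first title run, and in no female library. Xist, transcribed from the inactive X chromosome, was at 0.129 CPM in the library labelled female gamma replicate 7, which goes against that label.

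Among the adhesive and matricellular glycoproteins, Sparc (ENSMUSG00000018593, GRCm39 chromosome 11, 55285317 to 55314067), a collagen-binding matricellular protein that endothelial cells make as well, had the highest level per length, with a median of 74.1 CPM per kilobase of exon and a range of 204 to 789 CPM over the 80 libraries. Postn (ENSMUSG00000027750, chromosome 3, 54268501 to 54298471), or periostin, a product of activated fibroblasts, ranged from 29.1 to 323 CPM. Fn1 (ENSMUSG00000026193, chromosome 1, 71624673 to 71692419), or fibronectin, an adhesive glycoprotein, ranged from 26.3 to 123 CPM. Its merged exons span 15831 bases, more than the exons of any other member, so that its level per length of 3.08 CPM per kilobase may be understated where long isoforms are rare.

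Of the fibre components, Eln had a median of 3.60 CPM per kilobase, above that of Fn1, and Fmod stood far lower. Eln (ENSMUSG00000029675, chromosome 5, 134731445 to 134776322), or elastin, the core of elastic fibres, ranged from 18.1 to 76.4 CPM. Fmod (ENSMUSG00000041559, chromosome 1, 133964992 to 133976015), or fibromodulin, a small proteoglycan that binds collagen fibrils, was the lowest of the 10 per length, with a median of 0.435 CPM per kilobase. It ranged from 0.164 to 17.4 CPM, and its count fell to 3 in 1 library, so counting error is large where it was low.

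The crosslinking enzymes differed in level. Loxl1 (ENSMUSG00000032334, chromosome 9, 58195014 to 58220495), which crosslinks elastin, ranged from 27.7 to 93.5 CPM, and Lox (ENSMUSG00000024529), lysyl oxidase, which crosslinks collagen and elastin, ranged from 1.12 to 29.8 CPM. Ccn2 (ENSMUSG00000019997, chromosome 10, 24471333 to 24474900), or connective tissue growth factor, a secreted regulator of fibroblasts, ranged from 22.6 to 254 CPM. The protease Mmp2 (ENSMUSG00000031740, chromosome 8, 93553902 to 93580049), or gelatinase A, ranged from 15.2 to 129 CPM. Its inhibitor Timp1 (ENSMUSG00000001131, chromosome X, 20736316 to 20740976) ranged from 0.738 to 17.3 CPM. Timp1 overlaps the protein-coding gene Syn1 on the opposite strand, and the sources used here do not give whether counting used strand. Its counts are therefore uncertain. The other 9 overlap no other protein-coding gene in the annotation.

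Per length, the order by median was Sparc, Ccn2, Loxl1, Mmp2, Postn, Eln, Fn1, Timp1, Lox and Fmod. Sparc was above Ccn2 in 80 of 80 libraries, Postn above Eln in 78 and Timp1 above Lox in 79. Ccn2 was above Loxl1 in 45 of 80 libraries, Loxl1 above Mmp2 in 53, Eln above Fn1 in 56 and Lox above Fmod in 48, so these neighbours overlapped widely. Members varied more between libraries of the same group and title run than most genes did. The SD of log2 CPM within groups and runs was 0.729 for Timp1, 0.658 for Lox, 0.591 for Postn, 0.587 for Fmod and 0.543 for Ccn2, against a median of 0.255 over all tested genes. The least variable member, Loxl1, had 0.331, larger than in 67.8% of tested genes.

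**Figure D1:**
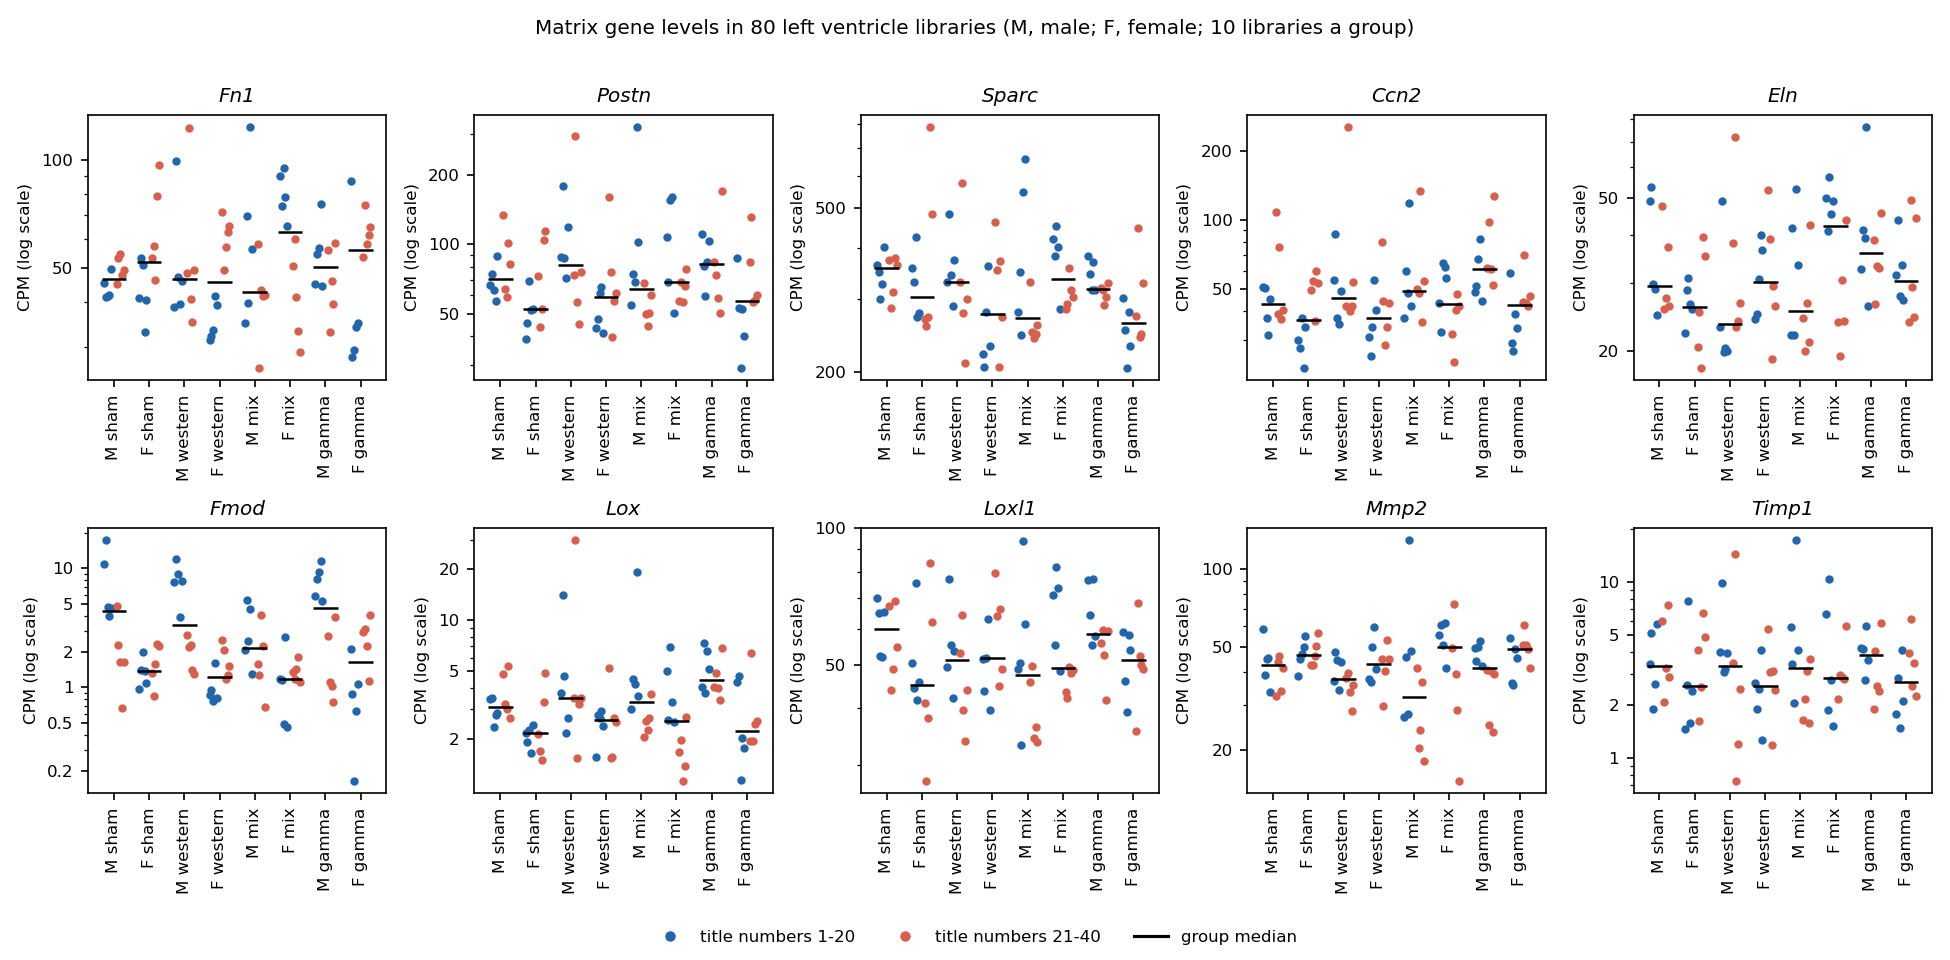
CPM (log scale) of the 10 members in the 8 groups of 10 libraries; each point is 1 library, blue for title numbers 1 to 20 and red for 21 to 40, and the line is the group median. The groups overlap in every panel, and single libraries such as male mixed field replicate 4 (Postn, 323 CPM) stand far above their group.

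Promoter sequences of 4 members are printed because their 250 bases before the annotated start held a match to a motif searched. They were read from GRCm39 with GENCODE vM39 starts, 5′ to 3′ on the gene's strand, for Timp1 at chrX:20736101-20736350, plus strand, Mmp2 at chr8:93553652-93553901, plus strand, Loxl1 at chr9:58220496-58220745, minus strand and Fn1 at chr1:71692420-71692669, minus strand. Capitals mark GGAATG, the core of TEAD sites, or its reverse complement CATTCC, and in Fn1 the cyclic AMP response element TGACGTCA.
Timp1: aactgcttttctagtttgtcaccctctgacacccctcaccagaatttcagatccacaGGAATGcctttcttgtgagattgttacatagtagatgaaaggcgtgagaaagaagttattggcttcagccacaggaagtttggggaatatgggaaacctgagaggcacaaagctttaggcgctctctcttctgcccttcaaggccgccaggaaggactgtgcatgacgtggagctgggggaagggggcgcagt
Mmp2: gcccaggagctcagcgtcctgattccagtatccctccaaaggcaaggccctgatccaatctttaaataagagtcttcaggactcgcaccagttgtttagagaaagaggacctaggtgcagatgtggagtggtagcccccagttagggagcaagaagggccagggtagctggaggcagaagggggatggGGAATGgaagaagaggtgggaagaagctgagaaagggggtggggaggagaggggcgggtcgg
Loxl1: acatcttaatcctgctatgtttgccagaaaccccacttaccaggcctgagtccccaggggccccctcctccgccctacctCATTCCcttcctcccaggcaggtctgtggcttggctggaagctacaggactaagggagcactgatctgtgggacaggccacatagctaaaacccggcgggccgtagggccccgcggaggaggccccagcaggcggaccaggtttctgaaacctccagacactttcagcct
Fn1: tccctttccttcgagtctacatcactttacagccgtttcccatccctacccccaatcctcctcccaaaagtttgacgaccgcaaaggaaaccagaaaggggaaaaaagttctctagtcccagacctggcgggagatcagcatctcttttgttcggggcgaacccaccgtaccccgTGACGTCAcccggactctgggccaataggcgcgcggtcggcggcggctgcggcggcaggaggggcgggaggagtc
Timp1 held 1 match of GGAATG at -193 to -188, Mmp2 1 at -62 to -57 and Loxl1 1 on the opposite strand at -170 to -165. At least 1 match was present in 3 of the 8 members given here and in 11.9% of the 15813 promoters of tested genes. The Fn1 match lay at -75 to -68, and 1.83% of promoters hold TGACGTCA. AP-1 (TGANTCA, 4.8% of promoters), the CArG box (searched by name, 1.19%) and TATAAA (8.23%) had no match in these 8 windows on either strand. A match is a run of letters and not a measured binding site.

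On the Western diet no member passed the test in either sex. Most stood close to sham, and the largest value was that of Lox in males. Each group was compared with sham of its sex by edgeR's quasi-likelihood test over 15879 genes, and a gene was called at a Benjamini-Hochberg adjusted p under 0.05. Called members numbered 0 of 10 in males, in females, in the mean of the sexes and in the difference between the sexes, where 0.397%, 0.0189%, 0% and 0.447% of all tested genes were called. Unadjusted p-values under 0.05 were found for 1, 1, 1 and 0 members, against 12.8%, 7.39%, 11.4% and 9.24% of all genes. DESeq2 also called 0 members (1, 1, 1 and 0 unadjusted), and limma-voom called 0 (0 unadjusted in each). The members' median log2 change was 0.11 in males and -0.05 in females, where the median over all tested genes was -0.01 and 0.00.

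Lox in male sham libraries had 2.33 CPM at the lowest, a median of 3.08 and 5.34 at the highest, and in male Western libraries 1.53, 3.47 and 29.8 CPM. The groups overlapped, with 7 of 10 Western libraries above the sham median and the top value in replicate 7. Its log2 change was 1.02 ± 0.36 (SE, n = 10 each, 95% interval 0.30 to 1.74, p = 0.00581, adjusted p = 0.188 by edgeR), and it was 0.37 (p = 0.266 by edgeR) without male Western replicate 7. Sparc in females, the other single-sex comparison with an unadjusted p under 0.05, had 259, 304 and 789 CPM in sham and 206, 276 and 463 CPM on the diet. Its log2 change was -0.33 ± 0.17 (p = 0.0476, adjusted p = 0.668 by edgeR), and -0.14 without female sham replicate 9, the library at 789 CPM. For the crosslinker Loxl1 the changes were -0.20 ± 0.15 in males and 0.11 ± 0.15 in females, and for Fn1 they were 0.27 ± 0.22 and -0.19 ± 0.22.

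Fmod in males and Eln in females had the smallest p-values among the members after the mixed field, and neither passed. Of 10 members, 0 were called in males, females, the mean of the sexes and the sex difference, where 0.0693%, 0%, 0% and 0.0315% of tested genes were called. Each of the 4 comparisons had 1 member at an unadjusted p under 0.05, against 8.17%, 6.47%, 5.7% and 9% of all genes. DESeq2 called 0 members (1 unadjusted in each) and limma-voom 0 (1, 1, 0 and 2). The median log2 change was 0.08 in males and 0.14 in females, and 0.01 over all tested genes in each sex.

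Fmod had 0.676, 4.36 and 17.4 CPM (lowest, median and highest) in male sham libraries and 0.680, 2.14 and 5.42 CPM in male mixed field libraries. The mixed field values lay within the sham range, and 2 of 10 were above its median. The log2 change was -1.04 ± 0.42 (p = 0.0154, adjusted p = 0.489 by edgeR). It was -0.61 without male sham replicate 2, the highest library. Without the libraries over 10 CPM of Myl7 it was 0.08, but that left male sham libraries of the second title run alone. Mixed field libraries of both runs remained, so Myl7 and title run cannot be told apart in this value. In males of the first title run, Myl7 exceeded 10 CPM in 2 of 5 mixed field libraries and in 5 of 5 sham libraries, and its part in the difference was not tested beyond this.

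Eln had 18.1, 26.02 and 39.5 CPM in female sham and 19.4, 42.4 and 56.6 CPM in female mixed field libraries. Its log2 change was 0.49 ± 0.21 (p = 0.0212, adjusted p = 0.756 by edgeR), with 7 of 10 above the sham median. The highest values came from the first title run, where female mixed field had 41.0 to 56.6 CPM and sham 22.2 to 30.9 CPM. Eln was not called within that run (adjusted p = 0.144 by edgeR), where 12.3% of all tested genes had an unadjusted p under 0.05. In the second run the mixed field and sham libraries had 19.4 to 43.7 and 18.1 to 39.5 CPM.

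No member was called after gamma radiation in males, in females, in the mean of the sexes or in the sex difference. The share of all tested genes called was 0.176% in males and 0% in females, in the mean of the sexes and in the sex difference. Members at an unadjusted p under 0.05 numbered 0, 1, 1 and 0, against 5.43%, 10.3%, 10.9% and 5.38% of genes. DESeq2 called 0 members (0, 1, 1 and 0 unadjusted), as did limma-voom (0, 1, 0 and 0). The median log2 change was 0.07 in males and 0.00 in females.

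Lox in male gamma libraries had 3.37, 4.45 and 7.30 CPM, against 2.33, 3.08 and 5.34 CPM in male sham, and the groups overlapped between 3.37 and 5.34 CPM. The log2 change was 0.56 ± 0.36 (p = 0.126, adjusted p = 0.971 by edgeR). Ccn2 had 31.4, 42.8 and 108 CPM in male sham and 44.3, 61.2 and 126 CPM in male gamma libraries, with a log2 change of 0.43 ± 0.26 (p = 0.105, adjusted p = 0.964 by edgeR). In gamma females Sparc had 204, 262 and 447 CPM, against 259, 304 and 789 CPM in sham. Its log2 change of -0.41 ± 0.17 (p = 0.0147, adjusted p = 0.402 by edgeR) became -0.22 (p = 0.157 by edgeR) without female sham replicate 9. The library at 447 CPM is the one labelled female gamma replicate 7, whose Xist level goes against its label and which was kept in its labelled group. Without it the change was -0.50 ± 0.17 (p = 0.0032, adjusted p = 0.343 by edgeR), and 0 members were called in females after gamma.

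Mixed field and gamma libraries, compared as the mean of the sexes, had 0 members called, where 0.0189% of tested genes were called. At an unadjusted p under 0.05 there was 1 member, Fmod (-0.72 ± 0.31, adjusted p = 0.44 by edgeR), against 10.4% of genes. DESeq2 called 0 (1 unadjusted) and limma-voom 0 (0 unadjusted). Over the 60 effects of 3 treatments on 10 members in both sexes, the 95% interval of the log2 change included 0 in 55. It held a change of 1.5-fold or more in 39 and of 2-fold or more in 12, so the spread between libraries leaves room for changes of that size. In bulk tissue a lower level can come from fewer cells that make a gene or from less RNA per cell, and these cannot be told apart.

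**Figure D2:**
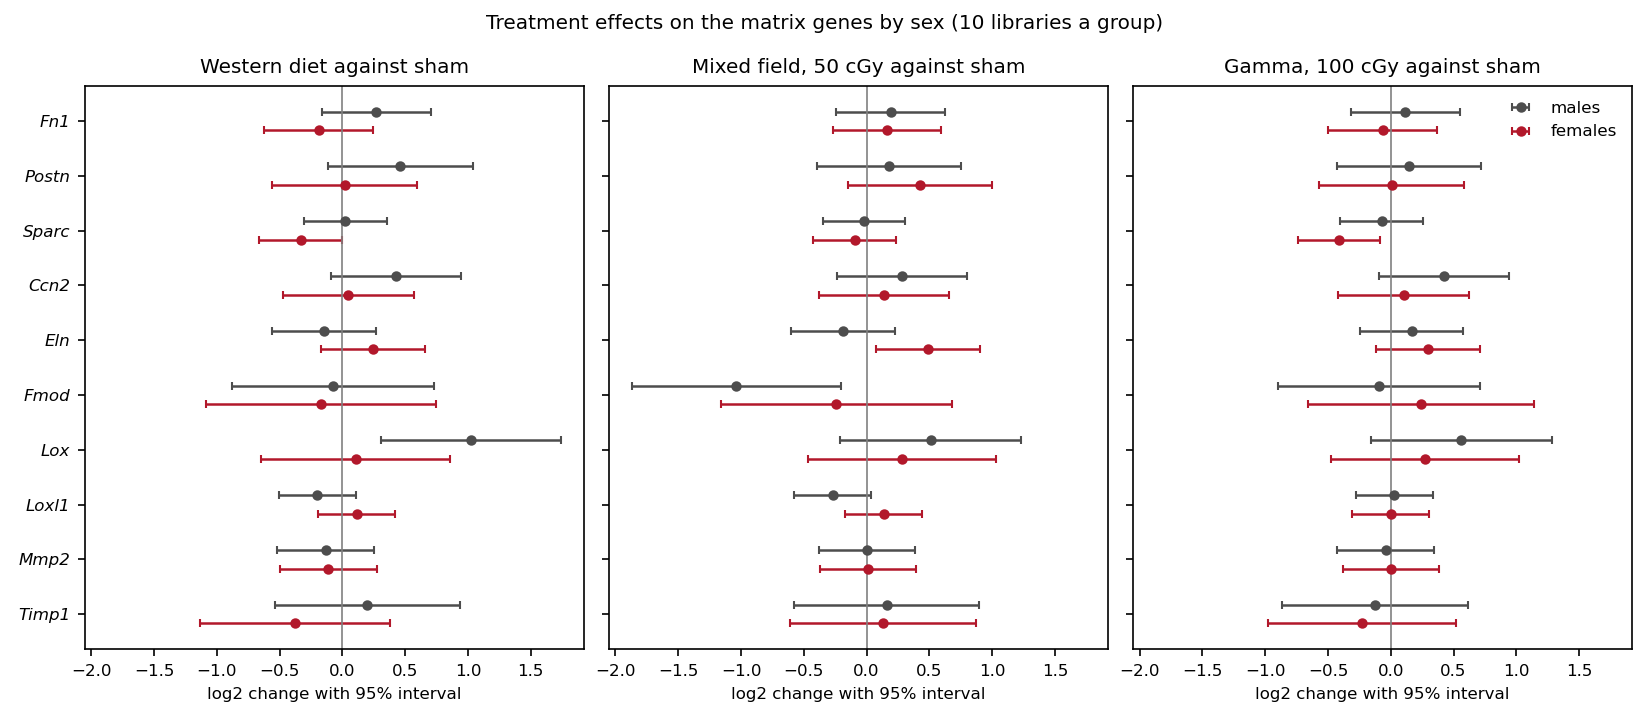
Log2 change against sham of the same sex for the 10 members after each of the 3 treatments, with 95% intervals, males in grey and females in red (edgeR, 10 libraries a group). Intervals include 0 in 55 of 60 effects, and the largest estimates are Lox on the Western diet (1.02) and Fmod after the mixed field (-1.04), both in males.

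The mixed field effect on Fn1 in females differed between the title runs, and no other member was called for such a difference in either sex. These 6 contrasts, the change of each treatment's effect from the first to the second run in each sex, were added after the values were seen. In the first run 7 of 10 members were above male sham and 9 of 10 above female sham after the mixed field, with median log2 changes of 0.42 and 0.64. In the second run 1 of 10 was above sham in each sex, with medians of -0.43 and -0.29. The estimate went from above sham to below it for 6 members in males and 8 in females, and kept its side for the others, among them Fmod in males (-1.40 and -0.16) and Eln in females (0.85 and 0.02). Over all tested genes the medians were 0.02 and -0.01 in the first run and 0.00 and 0.01 in the second. Within runs, 0 members were called in males (0.106% of genes in the first run and 0% in the second) and in females (0.244% and 0.0253%). At an unadjusted p under 0.05 there were 4 and 2 members in males, against 11.2% and 6.66% of genes, and 5 and 1 in females, against 12.3% and 14.2%.

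Fn1 in female mixed field replicates 1 to 5 had 89.8, 74.1, 94.9, 78.5 and 65.5 CPM, and female sham replicates 1 to 5 had 41.1, 53.2, 50.9, 33.1 and 40.6 CPM. In replicates 6 to 10 the mixed field had 50.5, 60.1, 41.5, 33.2 and 29.1 CPM, and sham had 53.1, 57.6, 46.1, 79.0 and 96.6 CPM. Here the 3 lowest values were in the mixed field and the 2 highest in sham. The effect was a log2 change of 0.87 ± 0.27 in the first run and -0.63 ± 0.24 in the second. The difference between them, second minus first, was -1.51 ± 0.37 (95% interval -2.25 to -0.77, adjusted p = 0.0293 by edgeR), and Fn1 was the 1 member called in females, where 1.39% of tested genes were called. DESeq2 and limma-voom called Fn1 as well, and no other member. The call ended in 6 of 20 fits with 1 library left out (adjusted p 0.0551 to 0.169 by edgeR), namely without female mixed field replicates 3, 8, 9 and 10 and without female sham replicates 1 and 10, while the difference stayed between -1.67 and -1.34.

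In males the Fn1 difference had the same sign, -0.80 ± 0.37, and did not pass (adjusted p = 0.583 by edgeR). Male mixed field replicates 1 to 5 had 34.99, 69.8, 39.8, 123 and 56.2 CPM against 41.5 to 49.6 CPM in sham, and replicates 6 to 10 had 26.3 to 58.0 CPM against 45.2 to 54.6 CPM. Of 10 members 0 were called in males, where 0.0252% of genes were. At an unadjusted p under 0.05 there were 7 members in males, against 7.87% of genes, and 6 in females, against 17.1%. By DESeq2 these were 5 and 5 members and by limma-voom 2 and 4. The members' median difference was -0.71 in males and -0.83 in females, and -0.01 and 0.01 over all genes.

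Several other members had large differences without a call. Postn, in female mixed field libraries, had 108, 68.6, 155, 160 and 50.3 CPM in replicates 1 to 5 and 56.0 to 78.4 CPM in replicates 6 to 10. Its difference was -1.32 ± 0.53 in females and -1.53 ± 0.53 in males (adjusted p = 0.181 and 0.385 by edgeR). For Lox it was -1.61 ± 0.72 and -1.76 ± 0.70, and for Ccn2 -1.22 ± 0.50 and -0.41 ± 0.49. In males, Fmod went the other way (1.24 ± 0.61). Male mixed field replicate 4 had the highest level of 5 members among all 80 libraries. Without it, Fn1, Postn, Lox, Timp1 and Mmp2 had unadjusted p-values between 0.119 and 0.424 by edgeR in males.

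Cell markers moved in part with these values. In the first run, 6 macrophage markers summed to 207 to 313 CPM in female mixed field and 157 to 233 CPM in female sham libraries, and in the second run to 148 to 177 and 172 to 427 CPM. The 10 fibroblast markers summed to 2278.9 to 2749.9 CPM and 2301.8 to 2660.7 CPM in the first run, and to 1527.6 to 2544.8 and 2321.6 to 2798.3 CPM in the second. Rn18s-rs5 took 3.01 to 4.44% of counts in female mixed field and 1.13 to 3.96% in female sham libraries of the first run, and 0.45 to 0.685% and 0.4 to 0.506% in the second. Mitochondrial genes took 19 to 22.8% and 21 to 26.1% in the first run, and 20.7 to 31.3% and 22 to 26.8% in the second. In the first run the 8 endothelial markers summed to 999 to 1148 CPM in female mixed field and 853 to 1024 CPM in sham, and the 8 valve and tendon markers to 18.99 to 34.2 and 15.4 to 20.9 CPM. In the second run these were 896 to 1139 and 867 to 1176 CPM, and 16.9 to 30.2 and 14.5 to 36.3 CPM. First-run female mixed field thus stood higher in several lists, with overlap in each. The sum of 8 smooth muscle markers went the other way, with medians of 2502.3 CPM in female mixed field and 2593.3 CPM in sham in the first run. In the second run these medians were 2984.1 and 2568.2 CPM. That sum is mostly Des, with a median of 2098 CPM over all libraries, against 44.03 for Myh11 and 78.13 for Acta2. It is therefore no measure of smooth muscle content. In males the macrophage sum was 146 to 279 CPM in mixed field and 138 to 188 CPM in sham in the first run, and 136 to 187 and 160.1 to 221 CPM in the second. The male fibroblast sum was 1746.4 to 3714.5 and 2278.5 to 2925.8 CPM in the first run, and 1135.6 to 2142.0 and 1899.9 to 2366.6 CPM in the second. The part of these in the differences between runs was not tested. No such difference between runs was called for a member on the Western diet (0 of 10 in males and 0 in females, where 0.0315% and 0% of genes were called) or after gamma radiation (0 and 0, with 0% of genes in each sex). Members at an unadjusted p under 0.05 were 0 in all 4 of these, against 13.6% and 3.05% of genes for the diet and 3.45% and 3.47% for gamma, and DESeq2 and limma-voom each had 0 called and 0 unadjusted.

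Fibromodulin was the 1 member called between the sexes among sham libraries, and it was higher in males. Male sham libraries had 0.676, 4.36 and 17.4 CPM (lowest, median and highest) and female sham libraries 0.843, 1.39 and 2.34 CPM. The groups overlapped at their low ends, and 9 of 10 male libraries were above the female median. The log2 difference was 1.79 ± 0.44 (adjusted p = 0.0158 by edgeR), and 1.2% of all tested genes were called. DESeq2 called it, and limma-voom did not (1.28, adjusted p = 0.276). The members' median difference was 0.25, and -0.01 over all genes, and the other 9 ranged from -0.23 for Fn1 to 0.50 for Lox.

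In Fmod the sex difference was called within the first title run. Male sham replicates 1 to 5 had 4.02 to 17.4 CPM and replicates 6 to 10 had 0.676 to 4.84 CPM, while female sham libraries had 0.969 to 1.98 and 0.843 to 2.34 CPM. Within the first run it was 2.60 (adjusted p = 0.000677 by edgeR, 0.325% of genes called) and within the second 0.41 and not called, where 3.43% of genes were. Without libraries over 10 CPM of Myl7, which left male sham libraries of the second run alone, it was 0.04. The call also ended without male sham replicate 2 (1.36, adjusted p = 0.112 by edgeR). Over all groups, the change of the sex difference from the first run to the second was called, as given next.

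Between the title runs, 3 members were lower in the second run in males and 1 was higher in females. In males, Fmod, Mmp2 and Loxl1 fell, where 29.8% of all tested genes were called, and the share among members, 3 of 10, is near that background. The male fibroblast marker sum was lower in the second run too (lowest 1135.6, median 2001.4 and highest 2366.6 CPM, against 1746.4, 2497.4 and 3714.5 CPM). It did not overlap between runs in the Western group (2317.2 to 2658.3, then 1874.7 to 2213.1 CPM) or the gamma group (2446.4 to 3141.5, then 1712.2 to 2364.7 CPM). The median sum of 6 adipocyte markers went from 5.01 to 0.608 CPM in males, and the median sum of the atrial markers from 187 to 15.8 CPM. The part of the fibroblast and adipocyte markers in these differences was not tested. In females, where the fibroblast medians were 2398.8 and 2424.1 CPM, Fmod rose, with 24% of genes called. The difference of the run effect between the sexes was called for 1 member, Fmod, with 26.9% of genes called, and for 1 to 5 members when single libraries were left out. The members' median log2 change from first to second run was -0.22 in males and 0.16 in females, and 0.00 and 0.01 over all genes.

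Fmod in males had 1.29, 5.63 and 17.4 CPM (lowest, median and highest of 20) in the first run and 0.676, 1.64 and 4.84 CPM in the second. None of the 20 second-run libraries reached the first-run median, although the ranges overlapped. The log2 change was -1.66 ± 0.22 (adjusted p = 7.09e-09 by edgeR). In females Fmod had 0.164, 1.02 and 2.64 CPM in the first run and 0.843, 1.54 and 4.05 CPM in the second, with 19 of 20 above the first-run median. Its change of 0.67 ± 0.24 (adjusted p = 0.0315 by edgeR) was lost in 5 of 40 fits with 1 library left out (adjusted p 0.0511 to 0.054), those of female mixed field 3, gamma 3 and 10, sham 9 and Western 6. The difference between the sexes, -2.34 ± 0.32, was called (adjusted p = 8.68e-08 by edgeR).

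Mmp2 in males had 26.8, 44.8 and 129 CPM in the first run and 18.2, 36.1 and 46.3 CPM in the second, and 1 of 20 second-run libraries was above the first-run median. Its log2 change was -0.47 ± 0.12 (adjusted p = 0.00225 by edgeR). Loxl1 had 33.2, 56.5 and 93.5 CPM and then 33.8, 49.2 and 69.2 CPM, a change of -0.29 ± 0.10 (adjusted p = 0.0229 by edgeR, and 0.0678 without male mixed field replicate 4). Ccn2 went up in males by 0.43 ± 0.17 and did not pass (adjusted p = 0.0548 by edgeR), with 0.19 (p = 0.204) without male Western replicate 7. In females the values were -0.06 ± 0.12 for Mmp2 and -0.07 ± 0.10 for Loxl1.

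Fmod in males separated at 10 CPM of Myl7. In the first run the 17 male libraries over 10 CPM of Myl7 had 3.89 to 17.4 CPM of Fmod, and the 3 others, all mixed field, had 1.29 to 2.48 CPM. In the second run the 3 libraries over 10 CPM had 3.91, 4.07 and 4.84 CPM, and the 17 others had 0.676 to 2.78 CPM. Thus no male library over the mark had less Fmod than any male library under it. Above the mark the levels did not simply rise together. Male mixed field replicate 8 had the most Myl7 (628 CPM) with 4.07 CPM of Fmod, and male sham replicate 2 had 194 and 17.4 CPM. Mmp2 did not separate this way: in the second run the 3 libraries had 23.9, 32.3 and 39.3 CPM and the others 18.2 to 46.3 CPM. Ccn2 in that run had 108 to 134 CPM in the 3 libraries and 35.8 to 254 CPM in the others, with medians of 126 and 49.7 CPM. Female libraries had at most 0.452 CPM of Myl7 and 0.164 to 4.05 CPM of Fmod. Without the libraries over 10 CPM, 0 members were called between the runs in males, but 3 first-run male libraries remained, so the runs and the atrial marker cannot be told apart there. The part of atrial tissue in the Fmod difference was not tested further.

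**Figure D3:**
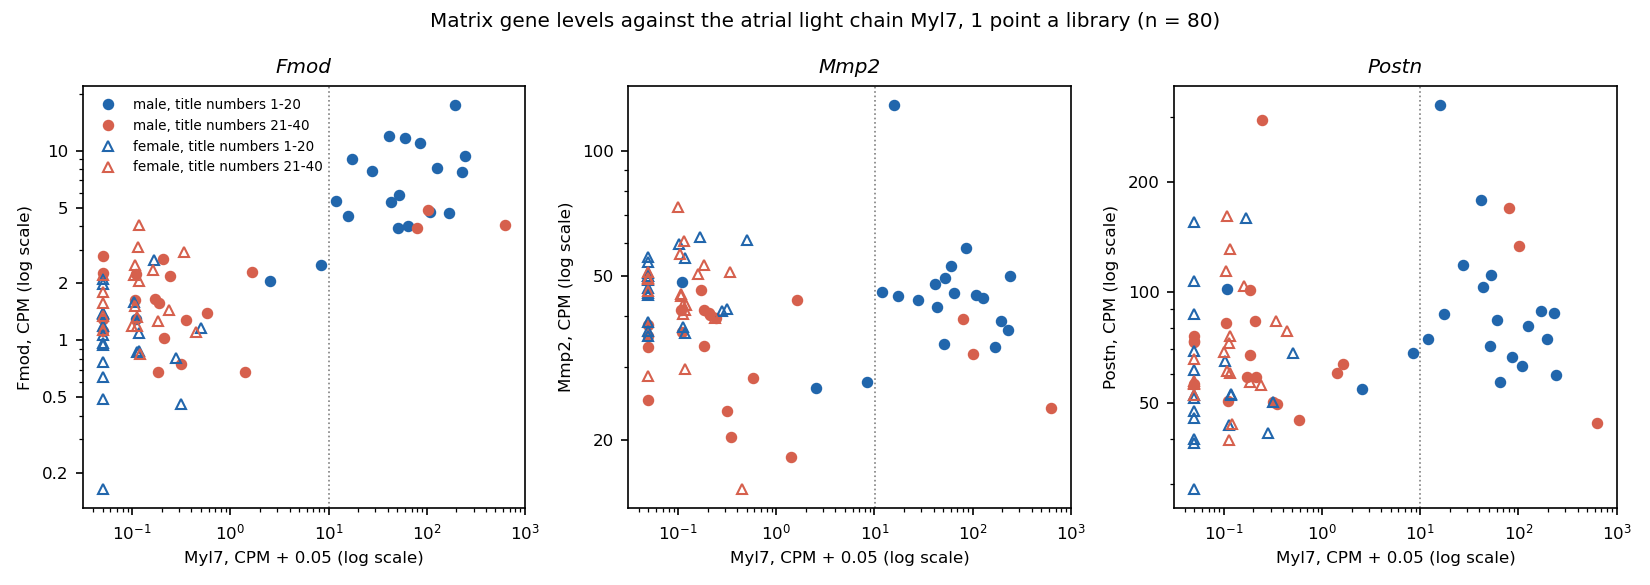
CPM of Fmod, Mmp2 and Postn (log scale) against CPM of the atrial marker Myl7 plus 0.05 (log scale) in 80 libraries, with the dotted line at 10 CPM of Myl7. Male libraries to the right of the line have 3.89 CPM of Fmod or more, and those to the left 2.78 or less, while Mmp2 and Postn overlap across the line.

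Members rose and fell together from library to library within groups. After the mean of each group and title run was removed from log2(CPM + 0.5), all 45 pairs of members had a positive Pearson r, with a median of 0.589, and 41 passed a permutation test within groups and runs (100000 permutations, Benjamini-Hochberg adjusted over the 45 pairs). The pairs share library and depth, and no cause was tested. No share over pairs of other genes is given beside these counts, so they cannot be called particular to the members. Sparc and Loxl1 had the highest value (r = 0.85, rho = 0.85, adjusted permutation p = 2.5e-05 for r and 3.2e-05 for rho, and r = 0.82 without the 2 libraries farthest from the median of Sparc). Postn and Lox had r = 0.80 (rho = 0.68, r = 0.72 without the 2 farthest), and Postn and Timp1 r = 0.78 (rho = 0.72, and 0.70). A permutation p of 1e-05 before adjustment, as these pairs had, is the smallest that 100000 permutations can give.

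Mmp2 stood apart, and its closest member was Fn1 (r = 0.66, rho = 0.65, adjusted permutation p = 2.5e-05). The pairs not called were Mmp2 with Eln (r = 0.14), Timp1 (0.16) and Ccn2 (0.17), and Fmod with Timp1 (0.22). Between Mmp2 and the 8 members other than Fn1, r was 0.42 to 0.70 (median 0.58) in the first title run and -0.19 to 0.19 (median 0.10) in the second. Without male mixed field replicate 4, the library with the highest Mmp2 level, the first-run values were 0.14 to 0.59 (median 0.45). Without female mixed field replicate 10, that with the lowest, the second-run values were -0.08 to 0.23. Fn1 and Mmp2 kept r = 0.67 and 0.65 in the runs. The difference between runs was not tested.

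**Figure D4:**
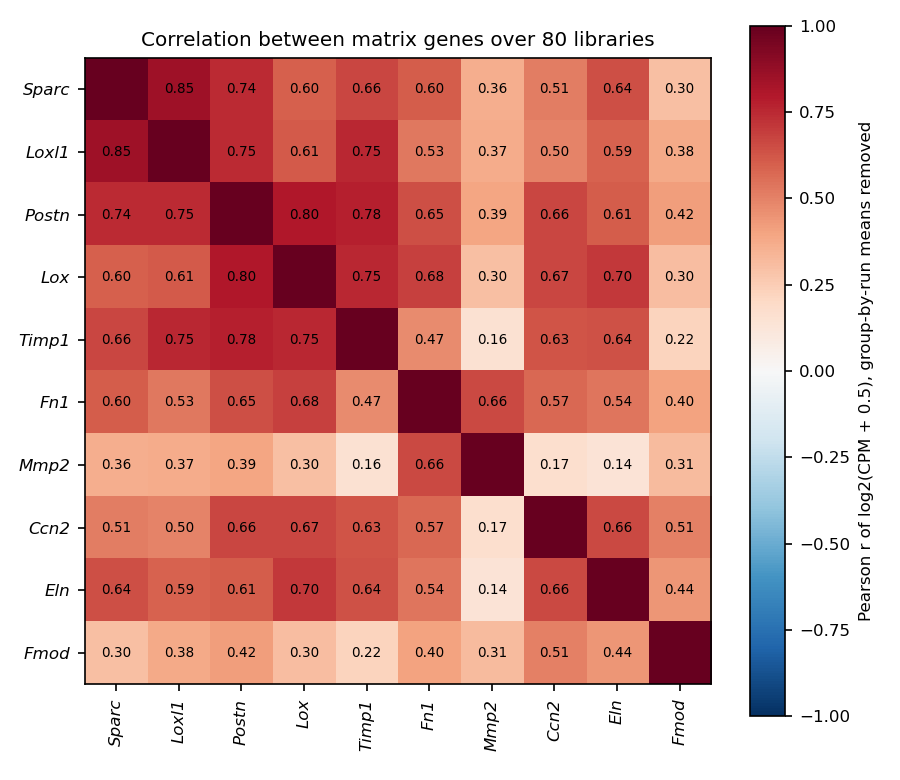
Pearson r between members over 80 libraries, from log2(CPM + 0.5) with the mean of each group and title run removed. Values run from 0.14 (Mmp2 and Eln) to 0.85 (Sparc and Loxl1), and the row of Mmp2 is the palest, apart from Fn1 at 0.66.

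Some libraries stood high in many members at once. Of the 50 places among the 5 highest libraries of each member, 3 of the 21 libraries in those places held 22, while the 50 lowest places were spread over 30 libraries. Male mixed field replicate 4 was among the 5 highest of 80 libraries for 9 members and stood at 1.97 to 5.91 times its group median for all 10. It had 323 CPM of Postn, 129 of Mmp2, 123 of Fn1 and 17.3 of Timp1. Its fibroblast marker sum, 3714.5 CPM, was the highest and its ventricular muscle sum, 38722.2 CPM, the lowest of 80. Male Western replicate 7 was among the 5 highest for 7 members, with 29.8 CPM of Lox and 254 CPM of Ccn2. Its fibroblast sum of 1874.7 CPM, in which Gsn and Dcn weigh most, ranked 74 of 80. Its sum of 8 epicardial markers, 41.1 CPM, ranked first. Over all libraries Wt1 (median 7.22 CPM) weighs most in the epicardial sum (median 8.95 CPM). Male Western replicate 2 was among the 5 highest for 6 members, and its macrophage marker sum of 327 CPM ranked 2. At the other end, female gamma replicate 3 was among the 5 lowest for 6 members, with 0 members above its group median. Over all libraries, 9 of 80 had all 10 members above the group median and 4 had none. The same counts for other sets of genes are not given, so these values describe the members and are not shown to be particular to them.

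The genes whose pattern over the 80 libraries was most like a member's included many other matrix genes. For Fn1 these were Col1a2 (r = 0.83), Col1a1 and Col3a1, all fibrillar collagens. For Sparc they were the basement membrane collagens Col4a1 (0.90) and Col4a2, with Igfbp7. For Postn they were Emp1 (0.88), Fstl1 and Cilp, for Lox they were Postn (0.80), Col5a2 and Col1a1, and for Loxl1 they were Sparc (0.85), Col1a1 and Serpinf1. Fmod was most like Col8a2 (0.68), Comp and Ltbp2, and Mmp2 most like Col8a1 (0.77), Nid1 and Sh3d19. Ccn2 was most like Nppa (0.74), the gene of atrial natriuretic peptide, Efhd2 and Comp. Timp1 was most like Postn (0.78), with Serpina3n at 0.75, and Eln most like Sbno2 (0.78), Col5a3 and Sorbs3. These are descriptions without a p.

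The wider matrix was read through 7 lists of 96 genes, of which 94 were tested: glycoproteins, elastic fibre genes, proteoglycans, crosslinking enzymes, proteases with their inhibitors, the CCN family and transforming growth factor beta ligands and receptors. After treatment, few changed. Spon2, a secreted spondin, fell in males on the Western diet (-1.62 ± 0.37, adjusted p = 0.021 by edgeR), the 1 listed gene called there. That is 1.06% of those tested, against 0.397% of all tested genes. By edgeR no listed gene was called in the other comparisons with sham. On the Western diet DESeq2 called 2 listed genes in males and 1 in females, and limma-voom 1 and 0. The diet effect differed between males and females for Spon2 (-3.17 ± 0.52) and for the inhibitor Timp3 (1.07 ± 0.26), and the mixed field effect for Spon2 (-2.65 ± 0.51). Both Spon2 differences rest on the same sham libraries, so they are not separate results. Spon2 also changed from the first title run to the second, by 0.726 ± 0.227 in males and -0.843 ± 0.215 in females. The share of tested listed genes called was 2.13% for the diet (0.447% of all tested genes) and 1.06% for the mixed field (0.0315%). Among sham libraries Spon2 (1.34 ± 0.36), the fibulin Efemp1 (0.77 ± 0.19) and the membrane protease Mmp14 (0.69 ± 0.18) were higher in males. They make 3.19% of the tested listed genes, against 1.2% of all tested genes. The lists were chosen with earlier results of these data known, so these shares are descriptions and not a test. The Spon2 calls for the mixed field and among sham libraries were kept by DESeq2 and lost by limma-voom (adjusted p = 0.0806 and 0.0866). The second title run differed from the first in 3 listed genes upward and 20 downward in males (24.5% of those tested, against 29.8% of all tested genes) and in 19 upward and 11 downward in females (31.9%, against 24%), so that these shares lie near the background. In males the collagen-binding proteoglycans Dcn (-0.37 ± 0.07) and Lum (-0.43 ± 0.10), near relatives of Fmod, were among those that fell.

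The difference of the mixed field effect between runs in females was called for 7 of the 94 listed genes, all downward (7.45%, against 1.39% of all tested genes). They were Nid1, Spon1, Lamc1 and Lama4, which are basement membrane and other glycoproteins, Fbn1, which forms microfibrils (-1.30 ± 0.36, adjusted p = 0.0493 by edgeR), Ccn5, a relative of Ccn2 (-1.94 ± 0.52, adjusted p = 0.0433), and Tgfbr2, the type II receptor of transforming growth factor beta (-0.69 ± 0.18, adjusted p = 0.0349). DESeq2 called 9 of the 94 and limma-voom 4, which left out Lama4, Fbn1 and Ccn5 (adjusted p = 0.0592, 0.086 and 0.136 by limma-voom). The contrast was added after the values were seen, and the lists were chosen with earlier results of these data known. The listed share is therefore a description and not a test. The p-values were adjusted over genes within each contrast only. In males 0 of the 94 were called, by DESeq2 and limma-voom as well. There 17 of the 94 had an unadjusted p under 0.05, against 7.87% of all tested genes.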

How the data were processed

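RNA was measured in 80 libraries of left ventricle by poly-A selected sequencing, per the labels' protocols. FastQC 0.11.9, STAR 2.7.8a and the GRCm39 (mm39) build are named, per the submitters' processing notes. The sources used here do not give the counting tool, strand setting or annotation. The deposited values are raw counts per Ensembl gene, and 56323 of 56941 IDs were matched to GENCODE vM39 symbols. Groups were taken from the labels' sex, diet, field and dose.

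Counts were fitted in edgeR 4.0.16 (R 4.3.3) with TMM normalization and filterByExpr, which left 15879 genes. One coefficient per group was used for treatment and sex, and one per group and title run for comparisons of runs. Adjusted p-values are Benjamini-Hochberg over all tested genes, with a threshold of 0.05. CPM used TMM-adjusted library sizes. Depth, 13484776 to 22143504 counts, limits precision mainly for Fmod, Timp1 and Lox. DESeq2 1.42.0, limma-voom (limma 3.58.1), other normalization, filters and omissions were tried. The scripts were tested on simulated data.

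All 10 members are named, with up to 4 called genes per list and comparison and the 3 most similar genes per member with a mean of at least 1 CPM. Members and lists were chosen with earlier results of these data known. Some genes and sequences that these rules select are not reported here.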

Additional observations from a re-analysis of the deposited data

Results flagged for a closer look

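In 15 of 80 combinations of member and group, 1 library lay far from the other 9 by Dixon's test at the 95% level. Each such library was the highest of its group. The test was run on CPM and not on logs, and members vary together. No chance count can therefore be set against the 15 combinations. Male mixed field replicate 4 accounts for 6 of them, with 123.3 CPM of Fn1, 323 of Postn, 19.36 of Lox, 93.49 of Loxl1, 17.33 of Timp1 and 129.3 of Mmp2, and its group's next highest values were 69.8, 102, 4.47, 61.4, 5.57 and 48.4 CPM. Male Western replicate 7 had 29.82 CPM of Lox (others up to 14.1) and 253.9 CPM of Ccn2 (others up to 86.8). Female Western replicate 6 had 160.9 CPM of Postn and 5.194 of Lox. Female sham replicate 9 had 789.2 CPM of Sparc and female sham replicate 10 had 4.881 CPM of Lox. Male gamma replicate 10 had 169.6 CPM of Postn and male gamma replicate 4 had 76.44 CPM of Eln. Female gamma replicate 7, whose Xist level goes against its label, had 447 CPM of Sparc (others 204 to 329).

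The change of Fmod between title runs differed between the sexes by -2.34 ± 0.32 on the log2 scale. The mixed field effect on Fn1 in females differed between title runs by -1.51 ± 0.37, a contrast chosen after the values were seen.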

How the results depend on the processing

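Counting error limits Fmod, Timp1 and Lox, whose lowest counts were 3, 13 and 18. The treatment comparisons of the report kept 0 called members under each alternative run, both other tools, other normalization, no low-count filter and single omissions included. Males against females among sham libraries had 1 called member, and 0 by limma-voom, when libraries over 10 CPM of Myl7 were omitted and with title numbers 21 to 40 alone (0 to 1 over single omissions). Between title runs the counts were 5, 2 and 4 in males, in females and for their difference with no low-count filter, which tests more genes, and 0, 1 and 0 without libraries over 10 CPM of Myl7. Over single omissions they were 0 to 2 in females, 1 to 5 for the difference and 3 to 6 in males, the 6 without male Western replicate 7. For the mixed field effect between runs, no low-count filter gave 1 member in males (Postn, adjusted p = 0.0376) and 2 in females, and single omissions gave 0 to 1 in females. The change of Lox between runs in males reversed to 0.0544 without male mixed field replicate 4 and to 0.017 without male Western replicate 2 (-0.544 to 0.0544 over omissions). The cause was not tested.

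Correlations with Mmp2 reversed in several alternatives chosen after seeing the data, apart from the planned omission of Myl7 libraries. Without libraries over 10 CPM of Myl7, r was -0.0116 with Timp1 and -0.0826 with Eln. With title numbers 21 to 40 alone it was -0.105 with Ccn2, -0.0984 with Timp1 and -0.188 with Eln, and with female mixed field replicate 10 also left out -0.0802 with Ccn2 and -0.0318 with Eln. In female libraries it was -0.0326 with Ccn2 and -0.203 with Eln, and without male mixed field replicate 4 it was -0.0141 with Timp1 (-0.0141 to 0.242 over single omissions). The number of called pairs was 31 to 43 of 45.

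Title numbers shared by male and female libraries were tested for pairing. Of 40 same-numbered pairs 11 had a correlation of deviations over 0.1 (median 0.01), and 0 correlated best with their own number. These values gave no sign of pairing, but they cannot show that same-numbered libraries share nothing beyond the number. With the title number as a replicate block, 0 members were called between the sexes (Fmod 1.40, adjusted p = 0.228 by edgeR), and 0 in the sex differences of the 3 treatment effects.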
